A study of Homo sapiens with 3 samples.

Results

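The EGF receptor family and its ligands were followed here as 9 gene symbols in CaSki, an established human cell line whose labelled origin is an epidermoid carcinoma of the cervix. They comprise 3 receptors (EGFR, ERBB2, ERBB3), 4 ligands (AREG, EREG, HBEGF, TGFA) and 2 inhibitors of the receptors (ERRFI1, LRIG1). The members were taken by symbol, and all 9 were found among the 23277 symbols measured. Total RNA had been sequenced in 3 groups of 1 library each. One group carried the empty pMSCV retroviral vector and received an siRNA against GFP as control, one carried pMSCV with FLAG-NANOG and received the GFP siRNA, and one carried FLAG-NANOG and received an siRNA against HDAC1. The series asks which genes are regulated by the axis of NANOG, a homeobox protein best known from pluripotent stem cells, and the histone deacetylase HDAC1. All 3 groups share the CaSki background. HDAC1 siRNA without NANOG was not analysed here, so its effect is described in NANOG cells alone.

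Receptors of this family are tyrosine kinases that pair when a ligand binds. EGFR binds TGFA, AREG, EREG, HBEGF and their relatives, ERBB3 binds neuregulins and signals mainly through its partners, and ERBB2 has no known soluble ligand and serves as a partner for the others. The ligands are made as membrane-bound precursors that are cut free by metalloproteases, and the signal runs through RAS and ERK to genes that include the inhibitor ERRFI1. In squamous epithelium EGFR signalling is known for keratinocyte growth and migration.

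Values are FPKM, fragments divided by transcript length and by the mapped total of the library, so levels can be compared between genes. With 1 library a group there is no replicate spread, no test and no interval, and every difference below compares 2 libraries. Differences are given as log2(FPKM + 1), which understates the change of low genes. The fragments behind each value are unknown. A gene was tested for size of difference when its mean over the libraries was at least 1 FPKM, which 11401 genes reached, 7 of the 9 members among them. EREG and LRIG1 lay below that mean and are given by their values. NANOG stood at 0.0357 FPKM with empty vector, 298 FPKM with NANOG and GFP siRNA and 325 FPKM with NANOG and HDAC1 siRNA. HDAC1 stood at 19.02, 108 and 12.8 FPKM in that order, so that its level was highest in the NANOG library with GFP siRNA. Of the epithelial markers, 8 of 8 were tested, with sums of 5378, 5628 and 4767 FPKM in the same order. Although the sum was higher with NANOG than with empty vector, 3 of the markers were higher and 5 lower, with a median of -0.30. Of all tested genes 49.2% were higher and 50.8% lower in that comparison. The 5 fibroblast markers summed to at most 0.994 FPKM in a library. Most of this was COL1A2, at 0.0198, 0.948 and 0.00649 FPKM in the same order. The 4 endothelial markers summed to at most 0.493 FPKM and the 5 leukocyte markers to at most 0.37 FPKM. The leukocyte marker MS4A1 and the endothelial marker KDR were at 0 in all 3 libraries.

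None of the 7 members tested differed by 2-fold or more in any of the 3 comparisons. Among all tested genes, 0.675% were 2-fold or more above and 1.22% below empty vector in the NANOG library, so few genes passed that limit. Between the NANOG libraries 0.0877% were higher with HDAC1 siRNA and 0.211% lower to that extent, and between the outer libraries (NANOG with HDAC1 siRNA against empty vector) 0.368% were higher and 0.824% lower. At 1.5-fold, ERRFI1 and ERBB3 were lower with NANOG (2 of 7 members, against 5.26% of tested genes lower and 3.47% higher), and EGFR was lower between the outer libraries (1 of 7, against 3.46% lower and 1.78% higher). Between the NANOG libraries 0 of 7 passed 1.5-fold, against 0.675% higher and 1.43% lower. The largest difference was that of ERRFI1, which was lower with NANOG by a margin just short of 2-fold. EGFR and ERBB3 were also lower with NANOG, while ERBB2 was nearly level. With HDAC1 siRNA, ERRFI1 and ERBB3 were nearer to their empty vector levels, whereas EGFR was lower still. The NANOG difference and the HDAC1 siRNA difference share the NANOG library with GFP siRNA. A low value in that library alone would give the course of ERRFI1 and ERBB3, and of genes below that were lowest there. With 1 library a group this was not tested. In bulk RNA, fewer cells of a type and less RNA per cell cannot be told apart.

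**Figure D1:**
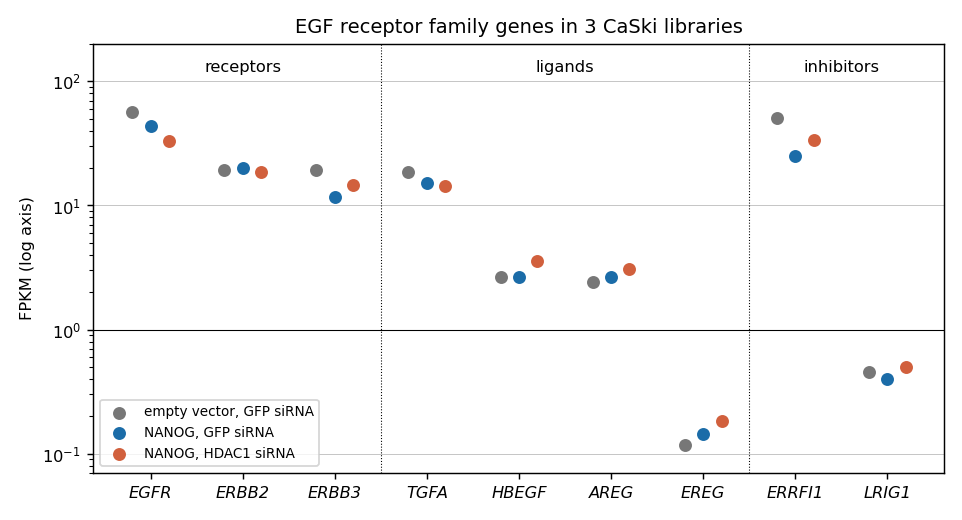
FPKM (log axis) of the 9 genes in the 3 libraries, 1 point per library; the horizontal line is at 1 FPKM and dotted lines separate receptors, ligands and inhibitors. EGFR and ERRFI1 hold the highest levels, and EREG and LRIG1 stay under 1 FPKM in each library.

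EGFR was the most abundant receptor in each library. It stood at 56.4 FPKM with empty vector, 43.7 FPKM with NANOG and GFP siRNA and 33.3 FPKM with NANOG and HDAC1 siRNA, and so was lower at each step. NANOG minus empty vector gave a difference of -0.36, and HDAC1 siRNA minus GFP siRNA within NANOG cells gave -0.38. These 2 comparisons share the NANOG library with GFP siRNA. Under TPM the difference with HDAC1 siRNA was -0.21, where the median of all tested genes was 0.18. Between the outer libraries the difference was -0.74, a level 1.69-fold lower, and 220 of the 11401 tested genes were lower by more. Long transcripts were slightly lower as a class with NANOG, with a median of -0.14 among tested genes of the same length class as EGFR. With that median removed the NANOG difference of EGFR was -0.22.

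ERBB3 followed another course. It stood at 19.3 FPKM with empty vector, 11.7 FPKM with NANOG and GFP siRNA and 14.6 FPKM with HDAC1 siRNA, so that the empty vector library was highest and the HDAC1 siRNA library lay between. The difference was -0.68 with NANOG, and 437 tested genes were lower by more. With HDAC1 siRNA it was 0.30 above the NANOG library with GFP siRNA, and the difference from empty vector was -0.38. The orphan partner ERBB2 stood at 19.2, 20.1 and 18.6 FPKM in the same order. Its differences were 0.06, -0.11 and, between the outer libraries, -0.05. The last 2 turned positive (0.07 and 0.09) when libraries were rescaled to TPM. Both lay below the medians of all tested genes on that scale, 0.18 and 0.13.

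Together these values shifted the make-up of the receptor messages. The 3 receptors summed to 94.85 FPKM with empty vector, 75.5 FPKM with NANOG and 66.4 FPKM with NANOG and HDAC1 siRNA. EGFR held 59.4%, 57.9% and 50.1% of these sums. The share of ERBB3 was 20.3%, 15.4% and 21.9%, and that of ERBB2 was 20.3%, 26.7% and 28.0%. ERBB2 and ERBB3 were thus at near-equal levels in empty vector cells, with a ratio of 0.999, against 1.73 with NANOG and 1.28 with HDAC1 siRNA. Such ratios within a library do not depend on how libraries are scaled to each other.

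**Figure D2:**
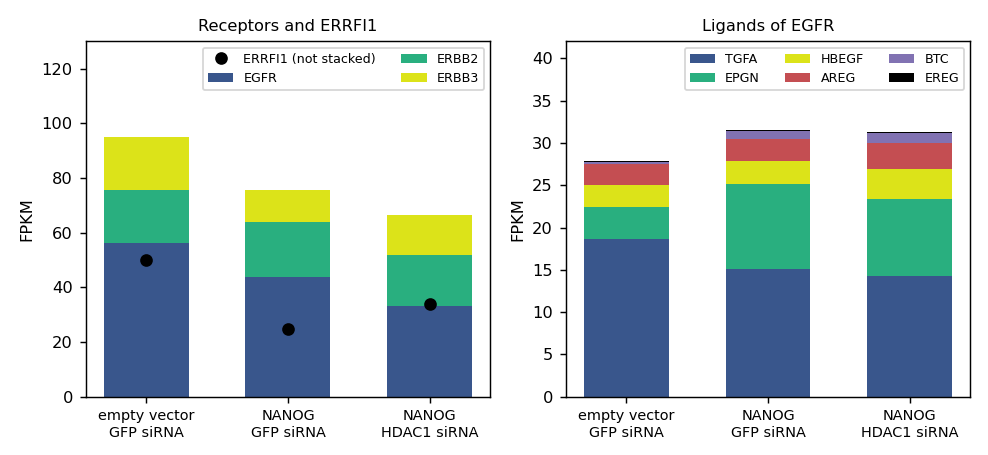
FPKM of the 3 receptors (left, stacked, with ERRFI1 as a black point on the same axis) and of 6 ligands of EGFR (right, stacked) in each library; EGF, under 0.1 FPKM in each library, is not drawn. The receptor stack goes from 94.85 to 75.5 and 66.4 FPKM, while EPGN takes a larger part of the ligand stack in both NANOG libraries.

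ERRFI1 encodes the cytoplasmic protein known as MIG6, which binds the kinase domain of active EGFR family receptors and blocks it. It stood at 50.2 FPKM with empty vector, 24.9 FPKM with NANOG and GFP siRNA and 33.9 FPKM with NANOG and HDAC1 siRNA. The empty vector library was highest and the NANOG library with GFP siRNA lowest. The NANOG difference was -0.98, and 148 of 11401 tested genes were lower by more. On the plain FPKM scale the level was 2.02-fold lower, and the difference passed 2-fold with a smaller pseudocount of 0.1 FPKM or under TPM. With HDAC1 siRNA, ERRFI1 was higher than with GFP siRNA by 0.43, and 221 tested genes were higher by more. Against empty vector ERRFI1 remained at -0.55. Set beside EGFR in the same library, ERRFI1 stood at 0.891, 0.57 and 1.02 FPKM per FPKM of EGFR, so its ratio was lowest with NANOG and GFP siRNA and highest with HDAC1 siRNA. LRIG1, a transmembrane protein that promotes loss of EGFR family receptors, stood at 0.453, 0.4 and 0.503 FPKM, below the filter, and its order across the libraries is not read.

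The start regions of ERRFI1 and EGFR, the inhibitor and the receptor with the largest differences in the set, are shown as the 100 bases before the RefSeq start on GRCh38.p14. The FPKM values rest on hg19, and the regions were matched by symbol. ERRFI1 lies at chr1:8026310-8026409 on the minus strand and EGFR at chr7:55018917-55019016 on the plus strand. Capitals mark GGGCGG, the GC box, on either strand.
ERRFI1: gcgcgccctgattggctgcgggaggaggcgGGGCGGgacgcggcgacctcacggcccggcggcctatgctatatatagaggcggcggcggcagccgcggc
EGFR: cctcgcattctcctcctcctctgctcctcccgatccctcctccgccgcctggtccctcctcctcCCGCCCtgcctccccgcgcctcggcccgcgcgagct
Both start regions are rich in G and C, at 75.2% for ERRFI1 and 73.6% for EGFR over 250 bases before the start, against a median of 58% for all promoters of the table. GGGCGG occurs in 42.6% of 35116 such windows. A second EGFR start in the table, further into the gene, has 38.8% G and C, and the FPKM values do not separate the starts. Of the 9 members 8 had an entry in the table, and ERBB3 had none.

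**Figure D3:**
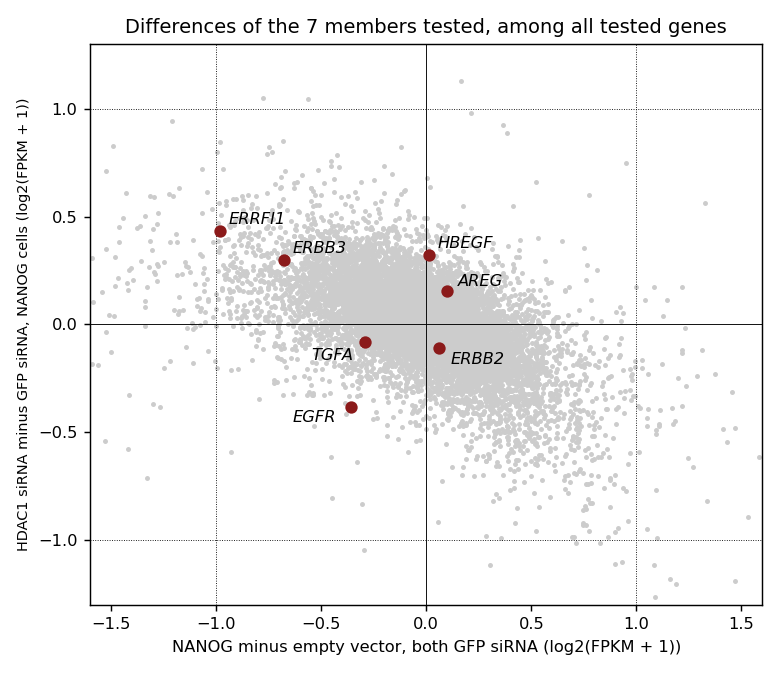
Difference of log2(FPKM + 1) between NANOG and empty vector (x axis) and of HDAC1 siRNA from GFP siRNA within NANOG cells (y axis); grey points are tested genes, red points the 7 members tested, dotted lines 2-fold. The axes share the NANOG library with GFP siRNA, which tilts the cloud; 60 of 11401 genes beyond the axis limits are not drawn. EGFR lies in the lower left, and ERRFI1 and ERBB3 in the upper left.

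Among the ligands, TGFA was the most abundant, at 18.7 FPKM with empty vector, 15.1 FPKM with NANOG and GFP siRNA and 14.2 FPKM with NANOG and HDAC1 siRNA. Both NANOG libraries lay below empty vector, with differences of -0.29 and -0.37. The difference between the NANOG libraries was -0.08, or 0.09 under TPM, where the median of all tested genes was 0.18. HBEGF, the heparin-binding ligand, stood at 2.63, 2.66 and 3.57 FPKM, level between the libraries with GFP siRNA and higher with HDAC1 siRNA by 0.32; 570 tested genes were higher by more. Amphiregulin (AREG) stood at 2.40, 2.64 and 3.05 FPKM, with differences of 0.10 for NANOG and 0.15 for HDAC1 siRNA. The first of these was -0.01 once the median of its length class was removed. The hg19 build holds a near-identical copy of AREG, AREGB, which is not among the symbols of the files, so how fragments shared by the copies were assigned is unknown and the level of AREG is uncertain. Epiregulin (EREG) was barely detected, at 0.117, 0.145 and 0.183 FPKM.

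In NANOG cells with HDAC1 siRNA the members HBEGF, AREG, ERRFI1 and ERBB3 were higher than with GFP siRNA, and EGFR, ERBB2 and TGFA lower. The median of the 7 was 0.15, against 0.01 for all tested genes. For NANOG against empty vector 3 were higher and 4 lower with a median of -0.29, against -0.01. Between the outer libraries 2 were higher and 5 lower with a median of -0.37, against -0.00. Of all tested genes, 53.4% were higher and 46.6% lower with HDAC1 siRNA against GFP siRNA. The shares were 49.2% and 50.8% with NANOG, and 49.8% and 50.2% between the outer libraries. Rescaling to TPM moved the median of all tested genes by 0.17 for HDAC1 siRNA against GFP siRNA and by 0.13 between the outer libraries. The TPM total was taken over all symbols, including the small RNA symbols that were left out of the tested genes. On that scale the differences with HDAC1 siRNA were 0.48 for ERBB3, 0.50 for HBEGF and 0.32 for AREG, and TGFA differed by -0.25 between the outer libraries.

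The list of other ligands and receptors held 8 genes, of which EPGN and NRG1 were tested. Epigen (EPGN), another ligand of EGFR, stood at 3.75 FPKM with empty vector, 10.1 FPKM with NANOG and GFP siRNA and 9.09 FPKM with NANOG and HDAC1 siRNA. Its difference with NANOG was 1.22, a level 2.68-fold higher, and 42 tested genes were higher by more. Between the outer libraries the difference was 1.09, and 37 tested genes were higher by more. Betacellulin (BTC), which binds EGFR and ERBB4, stood at 0.326, 0.932 and 1.20 FPKM, under the mean needed for a count. Neuregulin 1 (NRG1), the ligand of ERBB3, stood at 16.2, 25.9 and 23.8 FPKM and was higher with NANOG by 0.65. Per FPKM of ERBB3 there were thus 0.839 FPKM of NRG1 with empty vector, 2.22 with NANOG and 1.64 with HDAC1 siRNA. EGF itself reached at most 0.0901 FPKM, and the receptor ERBB4 and the ligand NRG3 were listed at 0 in all 3 libraries.

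The 7 ligands of EGFR in the files (TGFA, AREG, EREG, HBEGF, EPGN, BTC and EGF) summed to 27.9 FPKM with empty vector, 31.6 FPKM with NANOG and GFP siRNA and 31.4 FPKM with both NANOG and HDAC1 siRNA. TGFA supplied 66.9% of that sum with empty vector, 47.8% with NANOG and 45.4% with HDAC1 siRNA. EPGN supplied 13.4%, 31.8% and 28.98%. Ligand messages per FPKM of EGFR stood at 0.496, 0.724 and 0.943, lowest with empty vector and highest with HDAC1 siRNA. These are messages, and the released ligand was not measured.

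EPGN, EREG, AREG and BTC are neighbours on chromosome 4, where RefSeq on GRCh38.p14 lists no other protein-coding gene between them. Of the 4, EPGN and AREG passed the filter, and EPGN alone of them was past 2-fold with NANOG. AREG differed little, and EREG and BTC lay below the filter, so their order across the libraries is not read. On plain FPKM BTC was 2.86-fold higher with NANOG, at 0.932 against 0.326 FPKM. This is a ratio of values under 1 FPKM and is not read as a change. The sum of the 4 was 6.59 FPKM with empty vector, 13.8 FPKM with NANOG and GFP siRNA and 13.5 FPKM with the HDAC1 siRNA, of which EPGN made up most. The flanking genes were taken for their position after the members' values were seen. On the EPGN side MTHFD2L, a mitochondrial folate enzyme, stood at 1.32, 1.47 and 1.22 FPKM. Beyond it lie the chemokine genes CXCL2, at 7.87, 11.7 and 19.1 FPKM, and CXCL3, at 4.51, 6.34 and 9.75 FPKM, highest with HDAC1 siRNA. On the BTC side PARM1 was listed at 0 in each library. The difference of EPGN between the NANOG libraries was -0.13 as deposited and 0.03 under TPM, where the median of all tested genes was 0.18.

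**Figure D4:**
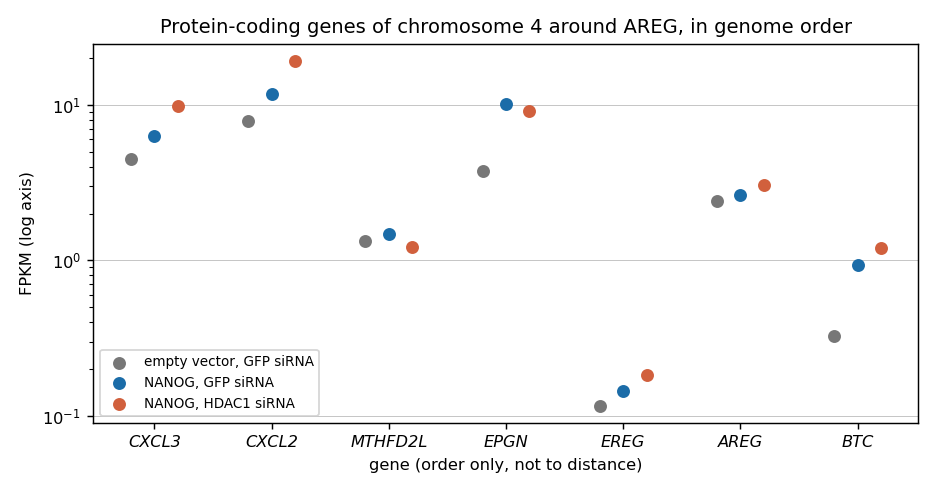
FPKM (log axis) in the 3 libraries for protein-coding genes around AREG on chromosome 4, in genome order and not to distance; PARM1, at 0 in each library, is not drawn. EPGN goes from 3.75 to 10.1 and 9.09 FPKM, whereas the neighbour MTHFD2L stays between 1.22 and 1.47 FPKM. BTC, below the filter, is at 0.326, 0.932 and 1.20 FPKM.

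The 100 bases before the starts of these 4 ligands are shown because the genes are neighbours and hold both the ligand with the largest NANOG difference, EPGN, and the members AREG and EREG. On GRCh38.p14 they lie at chr4:74308370-74308469 (EPGN), chr4:74365045-74365144 (EREG) and chr4:74445036-74445135 (AREG) on the plus strand, and at chr4:74794524-74794623 (BTC) on the minus strand. Capitals mark the TATA box core TATAAA, the GC box letters GGGCGG and the homeobox-type motif TAATNG, each on either strand.
EPGN: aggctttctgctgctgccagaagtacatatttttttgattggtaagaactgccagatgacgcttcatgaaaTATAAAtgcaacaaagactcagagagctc
EREG: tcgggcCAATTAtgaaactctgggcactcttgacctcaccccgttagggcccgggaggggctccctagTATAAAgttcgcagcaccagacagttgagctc
AREG: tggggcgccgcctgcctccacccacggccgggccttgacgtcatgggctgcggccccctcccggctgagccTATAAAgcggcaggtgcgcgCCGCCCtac
BTC: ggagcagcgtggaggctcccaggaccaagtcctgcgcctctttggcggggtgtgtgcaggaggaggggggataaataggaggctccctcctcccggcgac
The letters TATAAA begin 29 bases before the start in EPGN and AREG and 32 bases before it in EREG, and are not in the BTC window. Over 250 bases, 10.7% of all 35116 promoters hold TATAAA on either strand, 17% hold TAATNG and 6.57% hold TGANTCA, the AP-1 motif, which none of these 4 windows holds. A match of letters is a description and shows no binding.

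Of the pathway genes around the receptors, 94 were listed and 84 tested. With NANOG 29 were higher and 55 lower, and 2 passed 2-fold upward and 0 downward, against 0.675% and 1.22% of all tested genes. With HDAC1 siRNA 1 passed 2-fold in each direction, against 0.0877% of all tested genes upward and 0.211% downward. In that comparison 54 were higher and 30 lower, where 53.4% of all tested genes were higher and 46.6% lower. That share is the background for the counts of each list with HDAC1 siRNA below. For the counts with NANOG it is 49.2% higher and 50.8% lower. Of the genes in the ligand shedding list, 7 of 7 were lower with NANOG (median -0.19), where 50.8% of all tested genes were lower. The 7 include TIMP3, an inhibitor of metalloproteases, at -0.08. Length-class medians were not removed for any list. Long transcripts were lower as a class with NANOG, by a median of -0.14 in the class of EGFR, so part of such list medians may reflect length, which was not tested. ADAM17, the main sheddase of TGFA, AREG and HBEGF, stood at 33.4, 26.7 and 27.3 FPKM, a difference of -0.31 with NANOG. ADAM10 (-0.32) and ADAM9 (-0.33) were close to it, and ADAM12 was higher with HDAC1 siRNA by 0.27.

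Adaptors and kinases that relay the signal were lower with NANOG in 19 of 25 cases (median -0.16), where 50.8% of all tested genes were lower. The gene MAP2K1 for the kinase of ERK stood at 87.8, 48.3 and 53.6 FPKM (empty vector, NANOG with GFP siRNA, NANOG with HDAC1 siRNA), a NANOG difference of -0.85. RRAS, a RAS-related GTPase, differed by -0.62, the RAS exchange factor SOS1 by -0.61 and the transcription factor STAT3 by -0.52. With HDAC1 siRNA 18 of the 25 were higher (median 0.06), STAT3 by 0.33.

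Genes of receptor uptake and degradation were lower with NANOG in 12 of 18 cases (median -0.11), against 50.8% of all tested genes. With HDAC1 siRNA 12 of 18 were higher (median 0.06). The ubiquitin ligase NEDD4 stood at 32.3, 15.9 and 23.0 FPKM, a course with the same order as that of ERRFI1, with differences of -0.98 and 0.51. Both differences share the NANOG library with GFP siRNA. UBASH3B, which opposes CBL, differed by -0.44 with NANOG and the endocytic adaptor EPS15 by -0.38, while the ubiquitin ligase CBLB was higher by 0.40. Phosphatases and other brakes on the receptors were lower with NANOG in 9 of 12 cases (median -0.16), against the same 50.8%. The receptor phosphatases PTPRG and PTPRF were at -0.64 and -0.50. LRIG3, a relative of LRIG1, was higher with NANOG by 0.52. The list was even with HDAC1 siRNA, 6 higher and 6 lower, with SOCS3 higher by 0.44, and its median was -0.00 as deposited and 0.17 under TPM, which lies below the 0.184 of all tested genes on that scale.

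Of the ERK-induced genes, 12 of 20 were higher with NANOG (median 0.22), where 49.2% of all tested genes were higher. That median was -0.03 over the 13 genes left by a filter at 5 FPKM, so the list gives no stable direction with NANOG. With HDAC1 siRNA 13 of 20 were higher (median 0.18, and 0.17 with that filter), where 53.4% of all tested genes were higher. The ERK phosphatase gene DUSP5 went the other way with NANOG, at 29.98, 14.6 and 18.7 FPKM in that order, a difference of -0.99. The cyclin D1 gene CCND1 was higher with NANOG by 1.18 and lower with HDAC1 siRNA (-1.35), and was high in the NANOG library with GFP siRNA alone. HMGA2, a chromatin protein, differed by 1.13 with HDAC1 siRNA and IL8, which encodes a chemokine, by 0.98.

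**Figure D5:**
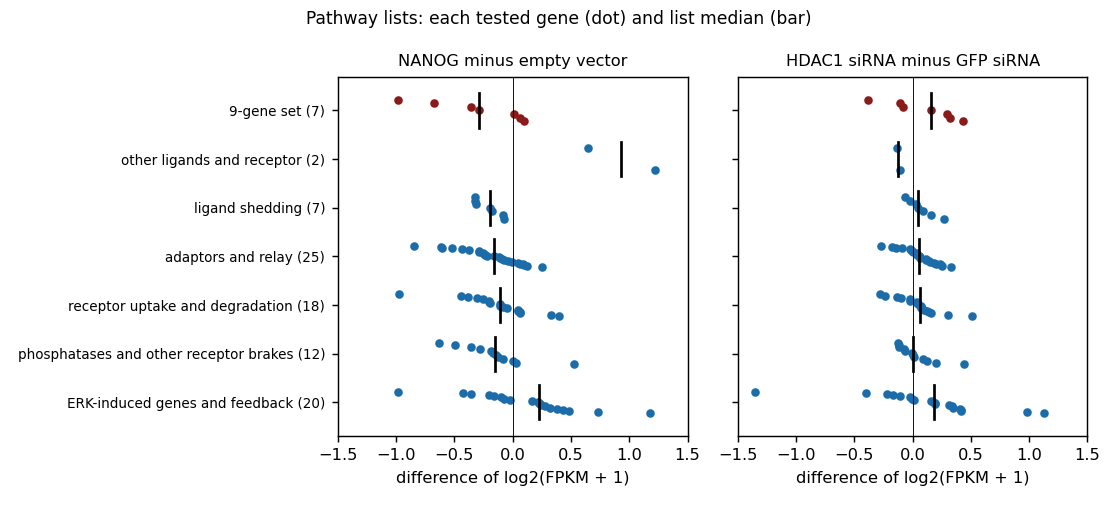
Difference of log2(FPKM + 1) for each tested gene (dot) of the 9-gene set (red) and of 6 pathway lists (blue), with list medians as bars and the number tested in brackets; left, NANOG minus empty vector, right, NANOG cells with HDAC1 siRNA minus GFP siRNA. Genes of the ligand shedding list, which includes the inhibitor TIMP3, lie left of 0 with NANOG in 7 of 7 cases. ERRFI1 is the leftmost red dot at -0.98.

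The genes nearest to the 3 members with the widest range were found by the distance between their pairs of differences, over 3 libraries, among 8373 genes that averaged 5 FPKM or more. ERRFI1 was nearest to SALL4 (distance 0.04), IVL (0.05) and MESDC1 (0.05), with 18 genes within 0.1. EGFR was nearest to GNG11 (0.04), HSPG2 (0.05) and KRT81 (0.06), with 6 genes within 0.1. ERBB3 was nearest to AHNAK (0.02), ASAP1 (0.02) and GAD1 (0.02), with 74 genes within 0.1. With 3 libraries the distance rests on 2 differences, which is a weak measure of likeness.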

How the data were processed

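Total RNA of 3 CaSki groups was sequenced, 1 library each, made from 2 ug with the TruSeq Stranded kit for total RNA, per the labels' protocols. TopHat2, Cufflinks and hg19 were used per the submitters' processing notes; versions, gene annotation and strand handling are not stated there. Their unit, in the deposited files, is FPKM by gene symbol, summing to 660990, 681947 and 600749 FPKM for empty vector, NANOG and NANOG with HDAC1 siRNA. FPKM holds no counts, so depth is unknown. Groups came from the sample titles.

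Differences of log2(FPKM + 1) were taken among the 11401 genes that averaged 1 FPKM or more, after leaving out 1621 small RNA symbols. Genes past 2-fold were counted, with 1.5-fold beside it. No test was possible with 1 library a group. The members and lists were chosen with earlier results of these data known. Named genes were the 9 members, NANOG, HDAC1, up to 4 genes of each pathway list with the largest difference in any comparison plus any past 2-fold, and the 3 genes nearest to each of 3 members. EGF, BTC, NRG3, ERBB4 and TIMP3 were named outside this rule, after their values were seen, as were the markers MS4A1, KDR and COL1A2. Length classes were 20 bins of GENCODE 29 transcripts, covering 89.8% of tested genes, an alternative added after seeing the data. It was run for the members and not for the pathway lists. The other alternatives were pseudocounts of 0.1 and 0.5 FPKM, no filter, a filter at 5 FPKM, upper quartile, median ratio and TPM scaling, and thresholds of 1.5-fold and 3-fold. Sequences came from RefSeq (GRCh38.p14). The steps were tested on simulated data. Python 3.11.15, numpy 2.4.6, pandas 2.3.3 and matplotlib 3.10.9 were used.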

Additional observations from a re-analysis of the deposited data

How the results depend on the processing

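The count of members past 2-fold for NANOG against empty vector was 0, and became 1 (ERRFI1) with a pseudocount of 0.1 FPKM or under TPM and 2 (ERRFI1 and ERBB3) at 1.5-fold. For NANOG with HDAC1 siRNA against empty vector it was 0, and 1 (EGFR) at 1.5-fold. For HDAC1 siRNA against GFP siRNA it was 0 under each alternative run. Of 21 differences of tested members, 16 kept their sign under every alternative run. The 5 that did not were AREG and HBEGF with NANOG, ERBB2 and TGFA with HDAC1 siRNA, and ERBB2 between the outer libraries, each at most 0.11 in size. The cause was not tested. Summing AREG with AREGB was not run, because that symbol is not among those of the files. No paired analysis was possible because each group has 1 library. Depth is unknown, so no limit can be set on values under 1 FPKM such as those of EREG and LRIG1. The median of the ERK-induced genes with NANOG turned from 0.22 to -0.03 with a filter at 5 FPKM, which left 13 of 20 genes.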
